A study of Mus musculus with 3 samples.

Results

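The let-7 guide strands let-7b-5p, let-7d-5p, let-7g-5p, let-7i-5p and miR-98-5p are the members of the family that differ from let-7a-5p at 2 or more of the first 22 nt. They are 5 of 404 miRNA entries counted in these libraries and 5 of the 9 let-7 guide strands. Their reads came to 117163 in the library called mock, 118211 in that called TuD-miR-122 and 23303 in that called TuD-let-7. The rule uses the sequence and no measured value, but it was set with earlier results of these data known. The other 4 guide strands, let-7a-5p, let-7c-5p, let-7e-5p and let-7f-5p, served as the comparison.

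The libraries hold gel-purified RNAs of 18 to 30 nt from the liver of C57BL/6 mice, an inbred strain, 4 weeks after they were given scAAV9, a self-complementary viral vector derived from adeno-associated virus. In mock the vector carried no decoy, in TuD-miR-122 a Tough Decoy against miR-122, and in TuD-let-7 a Tough Decoy against let-7. All 3 groups thus received the vector, and an uninjected liver was not analysed here. The series asked how such decoys affect the amount and the intactness of miRNAs. How many animals of what age stand behind each library, the decoy's promoter, the dose, and the let-7 member it was built against were not given in the sources used here. There was a single library per group. Differences between groups therefore lack a replicate check, and each interval below covers counting error only. The reads carry no molecular identifiers, so PCR copies count as separate reads.

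let-7 miRNAs are guides for Argonaute proteins and pair with messenger RNAs mainly through the seed, bases 2 to 8 from the 5′ end. They are abundant in adult tissues, where they repress growth and developmental regulators such as the RNA-binding protein Lin28 and the chromatin protein Hmga2. A Tough Decoy is an expressed hairpin RNA with exposed binding sites for a miRNA. Extensive pairing of a miRNA with a target is known to go with the addition of bases to its 3′ end and with its shortening there, called tailing and trimming.

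The mature sequences show what the 5 strands share and where they part. They are given 5′ to 3′ from RefSeq (GRCm38.p6), each of 22 nt, with the seed in capitals, and let-7a-5p is set first for comparison.
let-7a-5p: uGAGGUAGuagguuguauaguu
let-7b-5p: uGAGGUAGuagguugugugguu
let-7d-5p: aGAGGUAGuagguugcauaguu
let-7g-5p: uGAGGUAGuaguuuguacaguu
let-7i-5p: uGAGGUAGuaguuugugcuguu
miR-98-5p: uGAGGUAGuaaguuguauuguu
All 6 carry the seed GAGGUAG, so the members form 1 seed group. Capitals in the next lines mark instead the bases that differ from let-7a-5p.
let-7b-5p: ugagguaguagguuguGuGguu
let-7d-5p: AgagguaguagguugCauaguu
let-7g-5p: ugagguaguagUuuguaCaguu
let-7i-5p: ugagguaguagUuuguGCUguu
miR-98-5p: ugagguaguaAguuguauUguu
Positions run from 1 at the 5′ end and the let-7a-5p base is written first: let-7d-5p differs at U1A and U16C, and let-7b-5p at A17G and A19G. let-7g-5p differs at G12U and U18C, and miR-98-5p at G11A and A19U. let-7i-5p has 4 differences, G12U, A17G, U18C and A19U. The members also differ among themselves, by 2 bases for let-7g-5p and let-7i-5p and by 6 for let-7d-5p and let-7i-5p, the closest and the most distant pair. The most frequent 5′ end in the reads was the RefSeq 5′ end for each member, and reads starting within 2 nt of it but not at it made up at most 1.90% of a member in any library.

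The genes lie apart from each other in GRCm38. Mirlet7b (ENSMUSG00000065564.1) lies at 85707319 to 85707403 of chromosome 15, plus strand, within an exon of the noncoding transcript Lncppara, with 621 bases between it and Mirlet7c-2. Mirlet7d (ENSMUSG00000065453.1) lies at 48536012 to 48536114 of chromosome 13, minus strand, within an exon of 6720427I07Rik, a long noncoding RNA, within 10 kb of Mirlet7a-1 and Mirlet7f-1. Mirlet7g (ENSMUSG00000065440.1) lies at 106178840 to 106178927 of chromosome 9, plus strand, within an intron of Wdr82, and Mirlet7i (ENSMUSG00000065406.3) at 122985640 to 122985724 of chromosome 10, minus strand, within an exon of the pseudogene D630033A02Rik. Neither has another miRNA gene of its strand within 10 kb. Mir98 (ENSMUSG00000065536.2) lies at 151913214 to 151913321 of chromosome X, plus strand, within an intron of Huwe1, with 785 bases between it and Mirlet7f-2. Of the 5 members, let-7b-5p, let-7d-5p and miR-98-5p thus come from loci that also hold a nearer member, and let-7g-5p and let-7i-5p from loci of their own.

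The libraries held 2066892 to 3681585 reads, of which 72% to 78.5% were assigned to miRNAs. Levels are in RPM, reads per 1000000 non-target miRNA reads, where non-target means that neither a miR-122 nor a let-7 locus (Mir98 included) is the source. Non-target reads numbered 1377488 in mock, 1452365 with TuD-miR-122 and 487642 with TuD-let-7. A count of 3 reads, the floor used here, is 2.18 RPM in mock and 6.15 RPM in TuD-let-7. Listed markers of liver cell types, skeletal muscle and exocrine pancreas were looked up. All 25 were found in all 3 libraries, those of muscle and pancreas included, so their presence alone does not check the label of liver. The 5 hepatocyte markers had the highest sum of the listed types in each library. They summed to 915155 RPM in mock, 746731 with TuD-miR-122 and 2.21e+06 with TuD-let-7. That sum includes miR-122-5p, which is outside the scale. The 4 skeletal muscle markers summed to 10511 RPM in mock, 985 with TuD-miR-122 and 226 with TuD-let-7, and the 3 exocrine pancreas markers to 68.2, 1087 and 59.5. Summed erythroid, endothelial, immune, and stellate and stromal markers each differed by less than 2-fold between any pair of libraries. The part of these differences in the members' values was not tested. In a whole liver, fewer cells of a type and less RNA per cell cannot be told apart.

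With exact matching all 5 members were lower in TuD-let-7 than in mock, by 1.17-fold to 2.76-fold, although miR-98-5p turned to 1.13 of mock where 1 mismatch was allowed and the longest match decided. In TuD-miR-122 none differed from mock by 2-fold. let-7d-5p, let-7g-5p and miR-98-5p were at 0.441 of mock or less in TuD-let-7, and let-7b-5p and let-7i-5p at 0.760 or more. Summed, the members were at 85056 RPM in mock, 81392 with TuD-miR-122 and 47787 with TuD-let-7. The ratio of TuD-let-7 to mock was 0.562 (exact conditional-binomial 95% interval 0.554 to 0.570), against 0.295 for the 4 nearer members summed. Scaled to all reads or to all miRNA reads, the members' sum was at 0.332 or 0.356 of mock, on scales where the median non-target miRNA was at 0.582 or 0.625. For TuD-miR-122 over mock the members' sum gave 0.957.

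let-7i-5p was at 11102 RPM in mock, 10480 with TuD-miR-122 and 9493 with TuD-let-7. The 3 libraries lay close together, with TuD-let-7 lowest. Its ratio to mock was 0.855 (0.827 to 0.884) in TuD-let-7 and 0.944 in TuD-miR-122, and 59 of 192 other miRNAs had a lower ratio in TuD-let-7. This strand has the most differences from let-7a-5p of the family.

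let-7b-5p was at 19474 RPM in mock, 21294 with TuD-miR-122 and 14804 with TuD-let-7. TuD-let-7 was again lowest and TuD-miR-122 highest. The ratio to mock was 0.760 (0.741 to 0.780) in TuD-let-7 and 1.09 in TuD-miR-122. In TuD-let-7, 50 of the 192 other miRNAs lay lower.

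let-7g-5p, the most abundant of the 5 in every library, was at 42655 RPM in mock, 39452 with TuD-miR-122 and 18790 with TuD-let-7. Here TuD-let-7 stood well below the other libraries. Its ratio to mock was 0.441 (0.431 to 0.4503) in TuD-let-7 and 0.925 in TuD-miR-122. Of the 192 other miRNAs, 11 had a lower ratio in TuD-let-7.

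let-7d-5p was at 10839 RPM in mock, 9195 with TuD-miR-122 and 4343 with TuD-let-7. TuD-let-7 was lowest by a wide margin, and TuD-miR-122 was also under mock. The ratios to mock were 0.401 (0.383 to 0.419) and 0.848 (0.829 to 0.868). Only 9 of 192 other miRNAs had a lower ratio in TuD-let-7.

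miR-98-5p, the rarest of the 5, was at 985 RPM in mock, 972 with TuD-miR-122 and 357 with TuD-let-7, from 1357, 1412 and 174 reads. The libraries without a let-7 decoy were alike, and TuD-let-7 was lower. The ratios to mock were 0.362 (0.308 to 0.424) in TuD-let-7 and 0.987 (0.915 to 1.06) in TuD-miR-122. The value for TuD-let-7 held only for reads that match miR-98-5p exactly, as the mismatched reads described below show.

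**Figure D1:**
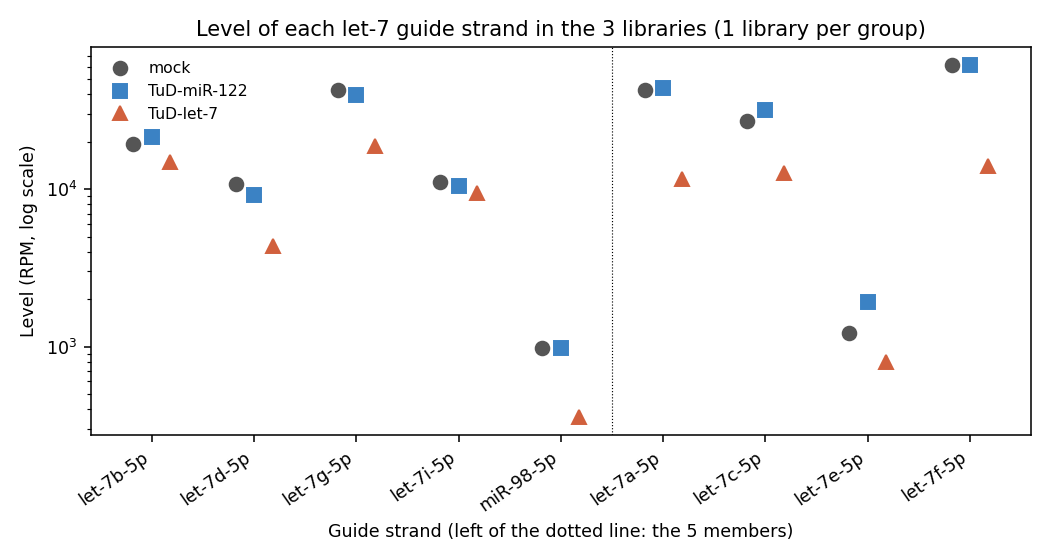
Level of each let-7 guide strand in RPM (log axis) in the 3 libraries, 1 point per library, with the 5 members left of the dotted line and the 4 nearer members right of it. The TuD-let-7 point is the lowest of the 3 for all 9 strands, with the smallest gap to mock for let-7i-5p (9493 against 11102 RPM).

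A member was counted as past the 2-fold rule when its 95% counting interval lay wholly below 0.5. In TuD-let-7 against mock 3 of the 5 members passed, namely let-7d-5p, let-7g-5p and miR-98-5p, where 4.17% of 192 non-target miRNAs with at least 100 reads did. None was above the corresponding upper limit, where 3.65% of non-target miRNAs were. With 1 mismatch allowed only let-7d-5p passed, since let-7g-5p (0.491) and miR-98-5p (0.894) no longer did. Scaled to all reads let-7b-5p (0.449) passed as well, but on that scale the median non-target miRNA was at 0.582. Of the 192 non-target miRNAs 50 had a lower ratio than let-7b-5p, so this call does not set it apart. Of the nearer members 3 of 4 passed. The median ratio was 0.441 over the 5 members and 0.368 over the 4 nearer ones, beside 0.985 over the non-target miRNAs. In TuD-miR-122 against mock 0 of 5 members passed, with 4.42% of 226 non-target miRNAs below and 13.7% above the limit. With TuD-miR-122 as the control instead of mock, the same 3 members passed below, at 0.472 (let-7d-5p), 0.476 (let-7g-5p) and 0.367 (miR-98-5p), where 17.4% of 213 non-target miRNAs did (2.82% above).

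The only member with 4 differences from let-7a-5p, let-7i-5p, had the highest ratio, and a single such strand gives no test of their number. Members with the same number of differences did not share a ratio. In TuD-let-7 the ratios to mock ran from miR-98-5p and let-7d-5p, whose intervals overlap, to let-7g-5p, let-7b-5p and let-7i-5p, whose intervals overlap with none of the others. let-7b-5p, let-7d-5p, let-7g-5p and miR-98-5p have 2 differences each and ratios between 0.362 and 0.760. The nearer members ranged from 0.229 for let-7f-5p to 0.654 for let-7e-5p, so both sets overlapped. Both members with a G at position 17 where let-7a-5p has A (A17G), let-7b-5p and let-7i-5p, had the highest ratios of the 9 strands. This was seen after the values were known, and 2 strands with that base give no test of it.

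Relative to let-7a-5p, one of the strands with the lowest ratios, the members were more frequent in TuD-let-7. Per 100 reads of let-7a-5p there were 45.4 reads of let-7b-5p in mock, 48.6 with TuD-miR-122 and 128 with TuD-let-7, a change of 2.82 times from mock (2.74 to 2.89). For let-7i-5p the numbers were 25.9, 23.9 and 82.1, a change of 3.17 times (3.07 to 3.28). let-7g-5p went from 99.5 and 89.95 to 162 and let-7d-5p from 25.3 and 20.96 to 37.6, changes of 1.63 and 1.49 times. miR-98-5p went from 2.30 and 2.22 to 3.09, a change of 1.34 times (1.14 to 1.57). These numbers need no scaling between libraries. The same change was 1.73 times for let-7c-5p, 2.42 times for let-7e-5p and 0.850 times for let-7f-5p. Reads tied between let-7a-5p and another entry were left out of its count. They numbered 1065 beside 59051 counted reads in mock, 2224 beside 63698 with TuD-miR-122 and 686 beside 5640 with TuD-let-7. The part of these ties in the changes was not tested. As shares of the reads of all 9 strands, let-7b-5p went from 8.96% in mock to 17.1% in TuD-let-7, let-7i-5p from 5.11% to 10.9% and let-7g-5p from 19.6% to 21.6%. The shares of let-7d-5p (4.99% and 5.004%) and miR-98-5p (0.453% and 0.411%) had overlapping intervals, so 3 of the 5 members gained share.

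The order of the members by reads was the same in the 3 libraries: let-7g-5p, let-7b-5p, let-7i-5p, let-7d-5p and miR-98-5p. In mock let-7i-5p and let-7d-5p were nearly equal, at a ratio of 1.02 (1.001 to 1.05), and in TuD-let-7 that ratio was 2.19 (2.08 to 2.30). The step from let-7g-5p to let-7b-5p narrowed from 2.19 in mock to 1.27 in TuD-let-7. Sequence-dependent ligation can set the reads of 1 miRNA against another, so this order is one of reads and not of molecules.

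**Figure D2:**
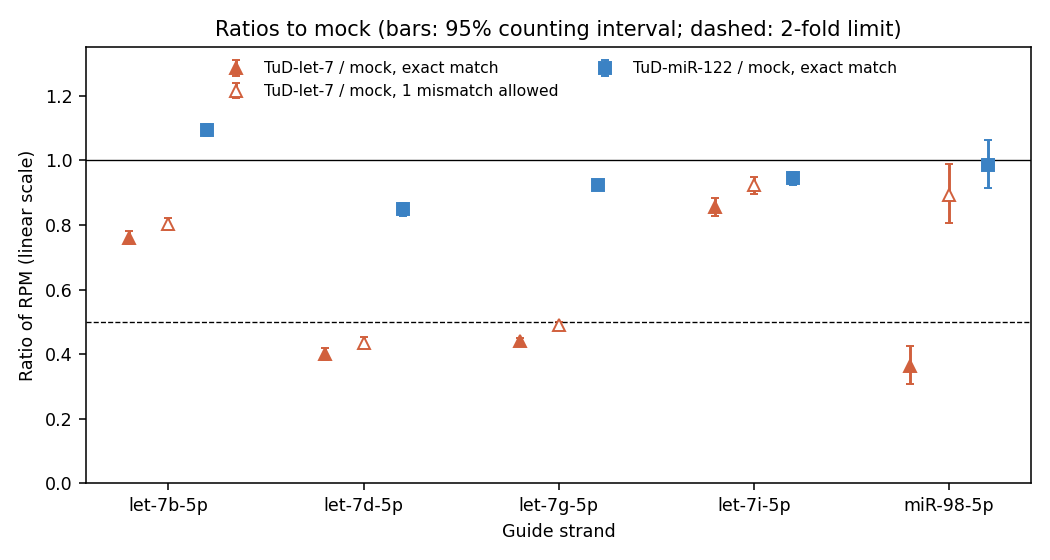
Ratio of RPM to mock for the 5 members (linear axis), for TuD-let-7 with exact matching, TuD-let-7 with 1 mismatch allowed and TuD-miR-122, with 95% counting intervals. With exact matching let-7d-5p, let-7g-5p and miR-98-5p lie below the dashed 2-fold limit, and with 1 mismatch miR-98-5p moves from 0.362 to 0.894.

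The passenger strands are cut from the other arm of the same precursors and mostly discarded, and those of let-7d and let-7g were at higher ratios to mock in TuD-let-7 than their guides. Summed over the 5 precursors they were at 923 RPM in mock, 675 with TuD-miR-122 and 822 with TuD-let-7. TuD-miR-122 was lowest. The ratio to mock was 0.891 (0.794 to 0.997) in TuD-let-7 and 0.731 (0.672 to 0.796) in TuD-miR-122. let-7d-3p supplied 939 of the 1272 passenger reads in mock, so this sum has another makeup than that of the guides. With 939, 671 and 295 reads, let-7d-3p was at 0.887 (0.776 to 1.01) in TuD-let-7 while its guide was at 0.401. There were 15.9 reads of let-7d-5p per read of let-7d-3p in mock, 19.9 with TuD-miR-122 and 7.18 with TuD-let-7 (6.35 to 8.14). let-7g-3p was at 0.775 (0.537 to 1.10) and its guide at 0.441. For let-7b-3p (0.895, 0.582 to 1.34) and let-7i-3p (1.19, 0.742 to 1.86) the intervals held both 1 and the ratio of the guide. They also did for miR-98-3p, with 10, 10 and 3 reads and a ratio of 0.847 (0.1499 to 3.29).

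A listed set of miRNAs made from primary transcripts that also carry let-7 genes, miR-99a-5p, miR-99b-5p, miR-100-5p, miR-125a-5p and miR-125b-5p, was found in full. In TuD-let-7 0 of 5 passed the 2-fold rule in either direction, with ratios to mock from 0.895 to 1.49. Among 192 non-target miRNAs 4.17% were below and 3.65% above the limits, so 0 of 5 does not set this list apart. None of the 5 members is itself encoded beside these miRNAs.

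Tailing and trimming separated the members further. A tail is the 3′ end of a read that does not match the precursor, of at most 5 nt, and a read was called trimmed when its matching part was under 21 nt. A difference of 5 percentage points or more was counted where both libraries held 1000 or more reads of the miRNA, which leaves 4 members in TuD-let-7, without miR-98-5p. The tailed share was higher in TuD-let-7 than in mock for 1 of the 4, let-7d-5p, and lower for 3, let-7b-5p, let-7g-5p and let-7i-5p. Of 49 non-target miRNAs 40.8% were higher and 2.04% lower. The trimmed share was higher for 3 of the 4, let-7b-5p, let-7d-5p and let-7i-5p, beside 40.8% of the non-target miRNAs, a background so high that a rise of 5 points alone sets no miRNA apart. The median difference over those miRNAs was 2.69 points for tailing and 2.73 for trimming. Summed over the 5 members, the tailed share was 33.5% in mock, 28.9% with TuD-miR-122 and 30.7% with TuD-let-7, and the trimmed share 5.76%, 5.84% and 13.35%.

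let-7b-5p had the largest difference in trimmed share among the members, though not in tailed share. Its trimmed share was 9.14% in mock (exact Clopper-Pearson 95% interval 8.80 to 9.50), 7.89% with TuD-miR-122 and 25.6% with TuD-let-7 (24.6 to 26.6). TuD-miR-122 was slightly under mock, outside its interval, and TuD-let-7 stood 16.4 points above mock. The difference lay in tailed reads: trimmed reads with a tail of only A made up 2.16% of let-7b-5p in mock, 1.76% with TuD-miR-122 and 12.04% with TuD-let-7 (11.3 to 12.8). Untailed trimmed reads made up 4.23%, 3.91% and 3.41%. On the RPM scale the trimmed, A-tailed reads were 4.23 times mock (3.81 to 4.71), although let-7b-5p as a whole was at 0.760. The share of such reads was higher by 9.88 points, and 0% of the 49 non-target miRNAs were higher by 5 points, the largest difference among them being 2.48.

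The inserts that carry this difference end 2 or 3 nt before the usual 3′ end and go on with A. They are shown in the letters of the reads, with the tail in capitals, beside the usual 22-nt form and its A-tailed form.
let-7b-5p, 22 nt: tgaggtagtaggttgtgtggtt
let-7b-5p, 22 nt and A: tgaggtagtaggttgtgtggttA
let-7b-5p, 20 nt and A: tgaggtagtaggttgtgtggA
let-7b-5p, 19 nt and A: tgaggtagtaggttgtgtgA
The form of 20 nt and A had 104 reads in mock, 87 with TuD-miR-122 and 340 with TuD-let-7, which is 75.5, 59.9 and 697 RPM, a ratio of TuD-let-7 to mock of 9.23 (7.39 to 11.6). The form of 19 nt and A was at 218, 182 and 459 RPM, a ratio of 2.11 (1.77 to 2.52). The untailed 22-nt form was at 4502 RPM in mock, 5612 with TuD-miR-122 and 4712 with TuD-let-7, highest in TuD-miR-122 and near mock in TuD-let-7 (1.05, 0.997 to 1.10). The usual A-tailed form of 22 nt and A went the other way, at 1821, 1590 and 707 RPM, a ratio of 0.389 (0.346 to 0.435). Inserts with A at position 21 followed by 1 precursor base had 7, 12 and 20 reads in the same order, and those followed by 2 precursor bases 4, 3 and 4.

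Of the let-7b-5p reads with 20 matching nt, 12.3% ended in only A in mock, 10.2% with TuD-miR-122 and 55.7% with TuD-let-7. With 19 matching nt the shares were 52.7%, 51.3% and 79.5%. At 22 matching nt the order turned, with 29.6%, 22.8% and 15.4%. In TuD-let-7 the A tails of let-7b-5p thus sat on shorter molecules, and the share of all its reads with a tail of only A was nearly the same as in mock, at 23.7% against 23.5%. The same form was more frequent in TuD-let-7 than in mock for the 4 nearer members, with trimmed, A-tailed shares of 7.27% against 0.557% for let-7a-5p, 16.1% against 1.41% for let-7c-5p, 6.20% against 0.837% for let-7e-5p and 1.76% against 0.259% for let-7f-5p.

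**Figure D3:**
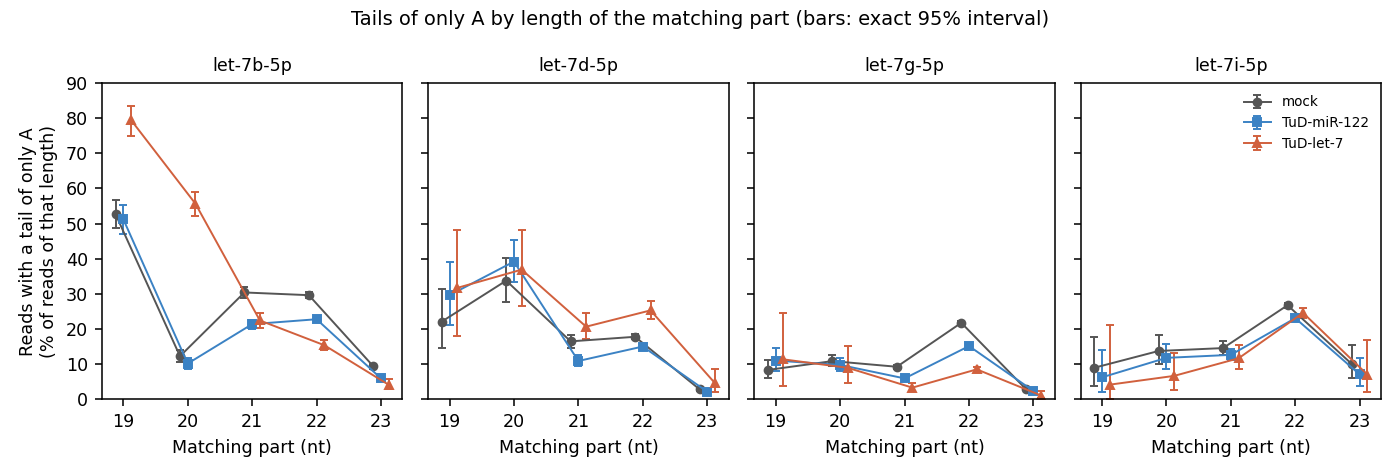
Share of reads ending in a tail of only A among reads with 19 to 23 matching nt, for let-7b-5p, let-7d-5p, let-7g-5p and let-7i-5p in the 3 libraries, with exact 95% intervals. For let-7b-5p with 20 matching nt TuD-let-7 stands at 55.7% against 12.3% in mock, while for let-7g-5p and let-7i-5p TuD-let-7 is not above mock at that length.

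let-7g-5p, although at a lower ratio to mock than let-7b-5p, had no more of this form in TuD-let-7 than in mock. Trimmed reads with a tail of only A made up 0.376% of it in mock, 0.283% with TuD-miR-122 and 0.207% with TuD-let-7. At 20 matching nt 10.9%, 9.78% and 8.96% of its reads ended in only A. Its tailed share was 23.2% in mock, 17.9% with TuD-miR-122 and 13.8% with TuD-let-7 (13.1 to 14.5), and the share with tails of only A 17.3%, 11.7% and 7.30%. TuD-let-7 was lowest in both, with TuD-miR-122 between. Its most frequent tailed form had 7308 reads in mock and 567 in TuD-let-7, a ratio of 0.219 (0.201 to 0.239), and the form with AA was at 0.0978 (0.0710 to 0.132), whereas the untailed 22-nt form was at 0.609 (0.593 to 0.625).
let-7g-5p, 22 nt: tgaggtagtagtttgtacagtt
let-7g-5p, 22 nt and A: tgaggtagtagtttgtacagttA
let-7g-5p, 22 nt and AA: tgaggtagtagtttgtacagttAA
The untailed 22-nt form made up 51.7% of let-7g-5p in mock and 71.5% in TuD-let-7. What remained of let-7g-5p was thus more uniform in length, with 21-nt and 23-nt untailed forms at 0.270 and 0.257 of mock.

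let-7d-5p was the member with enough reads whose tailed share was higher in TuD-let-7, at 29.2% (27.2 to 31.2) beside 19.7% in mock and 19.03% with TuD-miR-122. Only-A tails were found on 14.4% of its reads in mock, 11.98% with TuD-miR-122 and 22.2% with TuD-let-7. In both shares TuD-miR-122 was slightly under mock and nearer to it than TuD-let-7 was. The difference of 7.82 points in only-A tails passed 5 points, where 2.04% of 49 non-target miRNAs did, and was larger than in all 49. Its most frequent tailed form in all 3 libraries was 22 nt and A.
let-7d-5p, 22 nt: agaggtagtaggttgcatagtt
let-7d-5p, 22 nt and A: agaggtagtaggttgcatagttA
That tailed form was at 0.464 of mock (0.403 to 0.532) in TuD-let-7 and the untailed 22-nt form at 0.332 (0.309 to 0.356), so both were lower in RPM and the untailed form more so. The untailed 23-nt form was lower still, at 0.185 (0.159 to 0.215), and trimmed reads were at 1.06 times mock (0.891 to 1.25). The trimmed share was 3.50% in mock, 6.11% with TuD-miR-122 and 9.21% with TuD-let-7. Without reads whose tail matches again after 1 changed base, described below, these shares were 2.67%, 3.75% and 8.08%. In TuD-miR-122 such reads were 327 of the 816 trimmed reads, 273 of them with A19C.

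As tails were counted here, let-7i-5p had the highest tailed share of the members. Tails stood on 58.6% of its reads in mock, 53.2% with TuD-miR-122 and 49.1% with TuD-let-7. Single T tails, which stand for uridine, were about as frequent on let-7i-5p as single A tails. For let-7b-5p, let-7d-5p and let-7g-5p an added T after 22 nt cannot be told from the precursor's own base. Their untailed 23-nt forms, which end in that T, made up 17.0%, 18.8% and 8.31% of their reads in mock. How many of these reads carry an added T is not known, so the order of the members by tailing was not settled. On let-7i-5p tails of only T stood on 27.8%, 26.3% and 18.0% of reads and tails of only A on 24.6%, 21.1% and 21.2%. TuD-let-7 was lowest in T tails, and the libraries differed less in A tails.
let-7i-5p, 22 nt: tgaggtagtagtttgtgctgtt
let-7i-5p, 22 nt and A: tgaggtagtagtttgtgctgttA
let-7i-5p, 22 nt and T: tgaggtagtagtttgtgctgttT
In TuD-let-7 the untailed form was at 1.08 times mock (1.03 to 1.14), the form with A at 0.767 (0.711 to 0.826) and the form with T at 0.552 (0.511 to 0.596). Untailed let-7i-5p was therefore not lower than in mock on this scale.

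miR-98-5p shared the T tails, on 11.5% of reads in mock, 12.04% with TuD-miR-122 and 9.77% with TuD-let-7 (5.80 to 15.2). Its tailed share was 24.1%, 23.02% and 38.5% (31.2 to 46.2), and tails of only A stood on 7.37%, 6.66% and 16.7% (11.5 to 23.1). TuD-let-7 was highest in both, on 67 tailed and 29 A-tailed reads. Trimmed reads with a tail of only A numbered 7 in mock, 9 with TuD-miR-122 and 12 with TuD-let-7, a ratio of RPM to mock of 4.84 (1.76 to 14.5), so the form described for let-7b-5p was present here on few reads.

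Tails of mixed bases marked let-7b-5p, where they stood on 19.3% of reads in mock, 15.99% with TuD-miR-122 and 13.5% with TuD-let-7. The most frequent of them was AT. Tails of AT made up 10.2%, 8.59% and 3.46% of let-7b-5p in the same order. Some mixed tails, such as TGTT (2.23% of let-7b-5p in TuD-let-7), match again after 1 changed base, as described below. Reads with a tail that does so made up 1.03% of let-7b-5p in mock, 0.760% with TuD-miR-122 and 4.22% with TuD-let-7. Tails of only T stood on 5.90%, 7.51% and 1.55%, lowest in TuD-let-7 as for let-7i-5p.

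**Figure D4:**
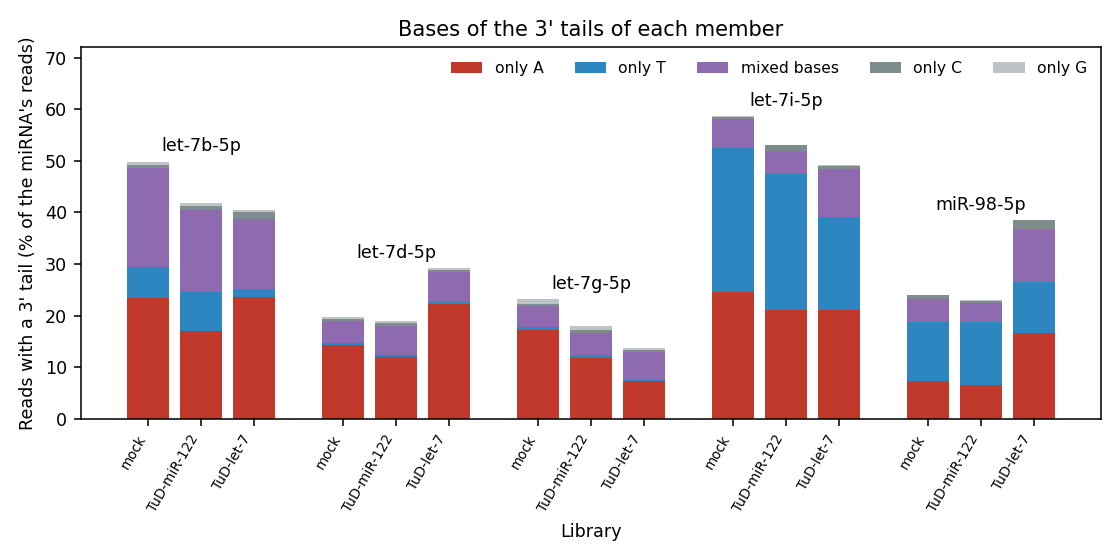
Share of reads of each member with a 3′ tail, in percent, split by the bases of the tail (only A, only T, mixed, only C, only G), for the 3 libraries. As counted, let-7i-5p has the highest tailed share (58.6% in mock), but an added T that matches the precursor's next base is not counted as a tail. In TuD-let-7 the tailed share is higher than in mock for let-7d-5p and miR-98-5p and lower for the other members.

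In TuD-miR-122 against mock the tailed share was lower by 5 points or more for 3 of 5 members, let-7b-5p, let-7g-5p and let-7i-5p, where 9.46% of 74 non-target miRNAs were lower and 2.7% higher. These are the same 3 members as in TuD-let-7, and both comparisons share the mock library. Tails of only A were lower by 5 points or more for let-7b-5p and let-7g-5p, beside 4.05% of non-target miRNAs, and the trimmed share differed by 5 points for none (2.7% lower). Against TuD-miR-122 as the control, the tailed share in TuD-let-7 differed by -1.25 points for let-7b-5p, -4.14 for let-7g-5p and -4.02 for let-7i-5p, none of them past 5 points (4.08% of 49 non-target miRNAs were lower). let-7d-5p was higher by 10.2 points, beside 46.9% of non-target miRNAs. Against this control the trimmed share was higher by 5 points or more for let-7b-5p and let-7i-5p, beside 46.9% (4.08% lower), and tails of only A for let-7b-5p and let-7d-5p, beside 6.12%. The tailed share of let-7b-5p, let-7g-5p and let-7i-5p was thus lower than in mock in both decoy libraries. Between the decoy libraries the median difference over the 49 non-target miRNAs was 4.54 points. Of these miRNAs 2 lay lower than let-7g-5p, 2 lower than let-7i-5p and 7 lower than let-7b-5p.

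The exact match between reads and precursors mattered more in TuD-let-7 than in the other libraries, because many of its reads differed from a member at a single base. Set against exact reads plus the reads changed at that position, position 11 was changed in 9.44% of let-7b-5p, 13.5% of let-7d-5p, 13.9% of let-7g-5p and 12.7% of let-7i-5p reads in TuD-let-7. In mock these shares were 0.0776%, 0.0887%, 0.148% and 0.114%, and in TuD-miR-122 between 0.101% and 0.221%. Nearly all were G11T, read against the member's own base. The same position of miR-21a-5p, a non-target miRNA with G there, was changed in 13.3% of reads in TuD-let-7 and 0.118% in mock, while position 11 of miR-194-5p, with A there, was changed in 0.427% and 0.272%. Position 11 thus had the highest changed share in this library for each let-7 strand and for miR-21a-5p. It was not the only position above mock. Changed reads at position 19 of let-7b-5p made up 7.09% in TuD-let-7 and 0.866% in mock. At position 4 of let-7g-5p the shares were 5.65% and 1.28%, and at position 2 of miR-21a-5p 4.60% and 0.192%. Some positions were lower than in mock, such as position 8 of let-7b-5p (0.160% and 0.766%). Allowing 1 mismatch added 31.5% to the exact reads of let-7b-5p in TuD-let-7, 36.2% to let-7d-5p, 38.1% to let-7g-5p and 34.0% to let-7i-5p, against 7.32% to 8.67% in mock.

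miR-98-5p has A at position 11 and was the exception in size. In TuD-let-7 161 reads matched it exactly over the first 20 nt, 310 differed from it at A11G and 306 at A11T, so 79.3% of the reads within 1 base of it at that position were not exact, beside 2.56% in mock and 4.74% with TuD-miR-122. The 310 reads with A11G lie equally 1 base from let-7a-5p (A19T) and let-7c-5p (G19T), which carry G at position 11. The commonest insert with A11T, shown here with the changed base in capitals, lies 2 bases from let-7a-5p and let-7c-5p.
Insert read as miR-98-5p with A11T: tgaggtagtaTgttgtattgtt
This insert had 2 reads in mock, 0 with TuD-miR-122 and 126 with TuD-let-7. It differs from let-7a-5p at G11T and A19T and from let-7c-5p at G11T and G19T. With 1 mismatch allowed miR-98-5p gained 358 reads on its 174 in TuD-let-7, of which 320 carried A11T, and its ratio to mock went from 0.362 to 0.894. From which strand these reads came was not tested, and the level of miR-98-5p in TuD-let-7 therefore has no value that holds under both matching rules. The other members kept their order, at 0.804 for let-7b-5p, 0.435 for let-7d-5p, 0.491 for let-7g-5p and 0.922 for let-7i-5p.

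**Figure D5:**
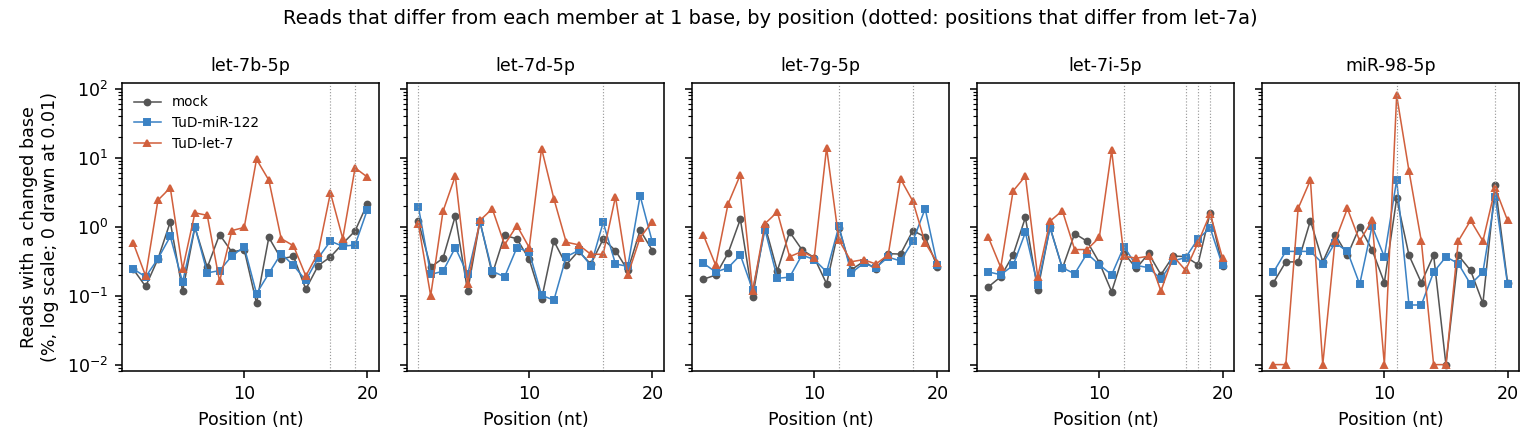
Share of reads that differ from each member at 1 base, by position from the 5′ end (log axis), in the 3 libraries, with dotted lines at the positions where the member differs from let-7a-5p. In TuD-let-7 position 11 is at 9.44% to 13.9% for the members with G there; the 79.3% for miR-98-5p includes 310 reads that are equally 1 base from let-7a-5p or let-7c-5p at position 19.

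A changed base near the 3′ end can also pass for a trimmed read with a tail, since the match stops at it. Reads of this kind, whose end matches a family member again after 1 changed base, made up 26.4% of the trimmed reads of let-7g-5p in mock, 38.4% with TuD-miR-122 and 62.3% with TuD-let-7. For let-7i-5p the shares were 36.8%, 25.9% and 62.7%, and for let-7b-5p 10.9%, 9.34% and 16.5%. TuD-let-7 was highest for these 3 members and lowest for let-7d-5p (24.1%, 40.1% and 13.3%) and miR-98-5p (62.3%, 56.1% and 30.8%). The inserts below were counted as tailed and trimmed, and the changed base is in capitals.
Counted as let-7i-5p, let-7b-5p with G12T: tgaggtagtagTttgtgtggtt
Counted as let-7b-5p, let-7b-5p with G19T: tgaggtagtaggttgtgtTgtt
The first had 30 reads in mock, 5 with TuD-miR-122 and 110 with TuD-let-7, and the second 5, 2 and 161. Without such reads the trimmed share in TuD-let-7 was 14.0 points above mock for let-7b-5p, 5.40 points for let-7d-5p and 0.928 points for let-7i-5p, and for let-7g-5p the difference was -1.25 points. The higher trimmed share of let-7i-5p thus rested on these reads, and that of let-7b-5p did not.

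Among the 80 non-target miRNAs that reached 1000 reads in mock, those whose log2 ratios to mock in TuD-miR-122 and TuD-let-7 lay nearest were named for each member, by Euclidean distance over the 3 libraries. For let-7i-5p these were miR-322-5p (distance 0.012) and miR-15a-5p, and for let-7b-5p miR-26a-5p (0.095) and miR-21a-5p. For let-7d-5p, let-7g-5p and miR-98-5p they were miR-27a-3p, at distances of 0.22, 0.10 and 0.22, and miR-16-5p. miR-27a-3p was at 0.422 of mock in TuD-let-7 and 0.980 in TuD-miR-122, so a ratio like that of the lower members also occurred outside the let-7 family.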

How the data were processed

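Per the labels' protocols, liver RNA was isolated with miRvana, the 18 to 30 nt fraction was cut from a gel, and library construction followed a published procedure. The authors deposited, for each of the 3 libraries, the distinct inserts with their raw read counts. For adapter removal, filters, aligner and build nothing was given in the sources used here. Reads were assigned to the 1174 miRNA precursors of GENCODE mouse release 21 (GRCm38) when they began at the most frequent 5′ end of an arm (at least 10 reads) and matched for at least 16 nt, with a tail of at most 5 nt. Arms identical over the first 22 nt were merged into 404 entries, and reads tied between entries (0.327% to 0.347% of miRNA reads) were left out of single miRNAs.

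No test between conditions was made. Ratios of RPM carry exact conditional-binomial intervals and shares exact Clopper-Pearson intervals, at 95%. The design rests on 1 library per group, and p-values were not computed. Mature sequences came from RefSeq (GRCm38.p6) and were found for the 5 members and let-7a-5p. The text names the members, their passenger strands, the 4 nearer members, the listed miR-99, miR-100 and miR-125 strands, and the 2 nearest non-target miRNAs per member. miR-194-5p and the inserts shown were chosen after their values were seen. The members and lists were chosen with earlier results of these data known. The counting code was tested on simulated data. Python 3.11, numpy 2.4.6, scipy 1.17.1 and matplotlib 3.10.9 were used. Other scalings, matching rules, tail limits and the other control library were tried.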

Additional observations from a re-analysis of the deposited data

Results flagged for a closer look

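Reads with a changed base at position 11 lie outside the exact matching used for the levels, and they were far more frequent in TuD-let-7 than in mock. As a share of exact plus changed reads over the first 20 nt, G11T stood at 9.40% for let-7b-5p (95% interval 8.72 to 10.1), 13.3% for let-7d-5p (11.98 to 14.8), 13.8% for let-7g-5p (13.1 to 14.5) and 12.7% for let-7i-5p (11.7 to 13.6). In miR-98-5p A11T stood at 65.5% (61.0 to 69.8). In mock, any change at position 11 made up at most 0.148% of let-7b-5p, let-7d-5p, let-7g-5p and let-7i-5p and 2.56% of miR-98-5p. The inserts counted as miR-98-5p with A11T lie 2 bases from let-7a-5p and let-7c-5p. The cause was not tested.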

How the results depend on the processing

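The sum of the 5 members in TuD-let-7 stayed below mock under all 14 alternatives. Its ratio was 0.332 scaled to all reads and 0.356 scaled to all miRNA reads, scales that put the median of the non-target miRNAs at 0.582 and 0.625 of mock (-0.78 and -0.68 on the log2 scale). It was 0.550 with at least 18 or at least 20 matching nt, 0.616 with 1 mismatch allowed (also where the longest match decides), 0.598 with 1 mismatch and 20 nt, 0.572 with tails of at most 2 nt, 0.587 with TuD-miR-122 as control, 0.591 for untailed reads of 21 nt or more, and 0.545 without tails that read as a substitution. The number of members past the 2-fold rule was 1 with 1 mismatch allowed, let-7d-5p, and otherwise 2 to 4. Scaled to all reads let-7b-5p, at 0.449, was the fourth, with 50 of 192 non-target miRNAs at a lower ratio. miR-98-5p turned to 1.14 of mock with 1 mismatch and 20 nt and to 1.13 where the longest match decides.

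The difference in tailed share of the sum was -4.67 and -7.31 points with 18 and 20 nt, -1.40 with 1 mismatch, -7.06 with 1 mismatch and 20 nt, -4.89 with tails of at most 2 nt, 1.79 with TuD-miR-122 as control, -1.80 without single-A tails, -5.02 without tails that read as a substitution and -0.854 with equal weight for the members. With only A tails counted, the difference of let-7b-5p turned to 0.192 points. For trimming the sum gave 5.32, 2.54, 8.99, 2.78 and 3.77 points under the first 5 of these settings, 5.43 with trimming below 20 nt and 4.95 without tails that read as a substitution. Among untailed reads alone it turned to -0.872, with -2.71 for let-7b-5p, -2.04 for let-7g-5p (1.41 otherwise, and above 0 in 6 of 12 alternatives), -0.266 for let-7i-5p and -0.522 for miR-98-5p, since that setting leaves out tailed reads. In TuD-miR-122 the members' sum was at 0.946 scaled to all reads, 1.03 to all miRNA reads and 0.965 by the median of ratios, and at 0.935 (1 mismatch), 0.937 (1 mismatch with 20 nt or with the longest match) and 1.03 (untailed reads of 21 nt or more). The longest match, the removal of substitution-like tails, equal weights and untailed reads alone were chosen after seeing the data.

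No paired analysis was possible because each group had 1 library. With 174 reads in TuD-let-7, miR-98-5p is limited by depth in each share.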
